A study of Sus scrofa with 6 samples.

Results

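Broad regions of open chromatin were taken from ATAC-seq peak lists of porcine (Sus scrofa) intestinal epithelial cells, from 3 control libraries and 3 of cells given deoxyshikonin, which belongs to the naphthoquinones of the shikonin family. The 6 lists were merged where peaks overlapped by at least 1 bp, which gave 51099 regions. Of these, 12238 held a peak in all 6 libraries and lay on contigs with more than 2 regions. They are called shared regions here. A shared region was counted as broad if the median over the 6 libraries of its widest peak was 1000 bp or more. The members were thus selected on presence and width in these same 6 libraries. They numbered 734, 6.0% of the shared regions and 1.44% of all regions. Both groups carry the tissue label intestine epithelium and differ by the treatment label alone, Control or Stimulated. The sources used here give no dose or duration and do not say if replicates are separate cultures. The p-values therefore compare treatment with a spread among replicates that may be only technical.

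ATAC-seq inserts sequencing adapters with the Tn5 transposase wherever DNA is not covered by nucleosomes, so stacked tags mark open chromatin. A peak caller joins neighbouring stretches above its threshold into 1 peak. A broad peak can therefore span several nucleosome-free stretches side by side, as is known at promoters of active genes and at clustered enhancers in many cell types, including intestinal epithelium. Positions refer to contigs of an assembly whose name the sources used here do not give. Genes, promoters and sequences were not analysed here, so the labelled cell type was not checked against marker genes, and regions are given by contig and position, counted from 1.

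The lists held 17169 to 25888 peaks in the controls and 33295 to 39281 under deoxyshikonin. Total read numbers are unknown. The genome-wide mean pileup of tags, a measure of relative depth, was 1.89 to 2.57 in the controls and 1.46 to 2.06 under deoxyshikonin. At the summits of broad regions the median pileup was 42 tags in the library with the lowest value and 65 in that with the highest. Control replicate 2 had the shortest list, and it also had the lowest heights and the narrowest peaks at broad regions.

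Most broad regions exceeded the width limit by a small margin, and a few were far wider. The median widths, which chose the regions and are given as a description, ran from 1000 to 2207 bp with a median of 1109 bp. Of the 734 regions, 339 were narrower than 1100 bp, 118 reached 1.25 kb and 18 reached 1500 bp. The median over the other 11504 shared regions was 564 bp. The regions closest to the limit on the inside were LUXX01057691.1 at 2366511 to 2367706 with 1000 bp, and LUXX01050369.1 at 2112131 to 2113581 and LUXX01090259.1 at 1078104 to 1079222 with 1001.5 bp each. On the outside, LUXX01031380.1 at 285511 to 287006, LUXX01099915.1 at 620351 to 622107 and LUXX01101156.1 at 1806252 to 1807409 each had 999.5 bp.

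The widest region was LUXX01100606.1 at 900848 to 903234, which was 1 unbroken peak in every library. Its width was 2128, 2297 and 2387 bp in control replicates 1 to 3, against 2206, 2208 and 2076 bp in deoxyshikonin replicates 1 to 3. It was also the broad region with the highest median summit. Height is given here as the summit pileup over the library's genome-wide mean pileup. The height of this region was 92.2, 87.1 and 78.7 in the controls against 78.3, 99.3 and 82.6 under deoxyshikonin, and the groups overlapped. Among the next widest, width depended on whether a library joined the parts of a region. LUXX01083171.1 at 1283361 to 1285385 was 1 peak of 1690 to 2025 bp in control replicate 3 and all 3 deoxyshikonin libraries. It was split in control replicate 1, where its widest peak measured 747 bp, and in control replicate 2, where 3 peaks were called and the widest measured 662 bp. LUXX01061515.1 at 25544 to 27572 measured 972 bp in control replicate 1, where it was split, and 1723 to 1965 bp in the other 5 libraries. LUXX01026751.1 at 209440 to 211351 measured 969 and 809 bp in control replicates 1 and 2, where it was split, and 1429 to 1846 bp elsewhere. LUXX01088383.1 at 3413902 to 3415839 measured 1210 bp in control replicate 2 and 1565 to 1936 bp elsewhere. LUXX01083082.1 at 394386 to 396090 measured 1030 bp in control replicate 1 and 1423 to 1695 bp elsewhere. Each of these 5 regions was narrowest in control replicate 1 or 2. Height changed at none of the 6 widest regions past the threshold used below (log2 changes of −0.28 to 0.12, limma adjusted p of 0.199 to 0.996). Without control replicate 3 the decrease at LUXX01100606.1 passed it (limma adjusted p = 0.0380).

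Broad regions were not equally broad in all libraries, and control replicates 1 and 2 fell short most often. The limit of 1000 bp was reached in 432, 290 and 670 of the 734 regions in control replicates 1 to 3, and in 681, 612 and 638 in deoxyshikonin replicates 1 to 3. All 6 libraries reached it at 156 regions, 5 at 192, 4 at 269 and 3 at 117. At 29 regions all 3 deoxyshikonin libraries and no control reached it, and at 10 regions all 3 controls and 1 deoxyshikonin library did. The median width of broad regions was 1039, 931 and 1177 bp in control replicates 1 to 3, against 1183, 1133 and 1150 bp in deoxyshikonin replicates 1 to 3. The group means were 1049 ± 123 bp and 1155 ± 25.4 bp (SD, n = 3 each). The groups overlapped, since control replicate 3 was wider than deoxyshikonin replicates 2 and 3. The log2 ratio of deoxyshikonin over control was 0.15, and it was 0.06 without control replicate 2 and 0.23 without control replicate 3. No test was made, because these widths chose the regions. Per region, the median log2 width ratio was 0.17 at broad and 0.17 at other shared regions.

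**Figure D1:**
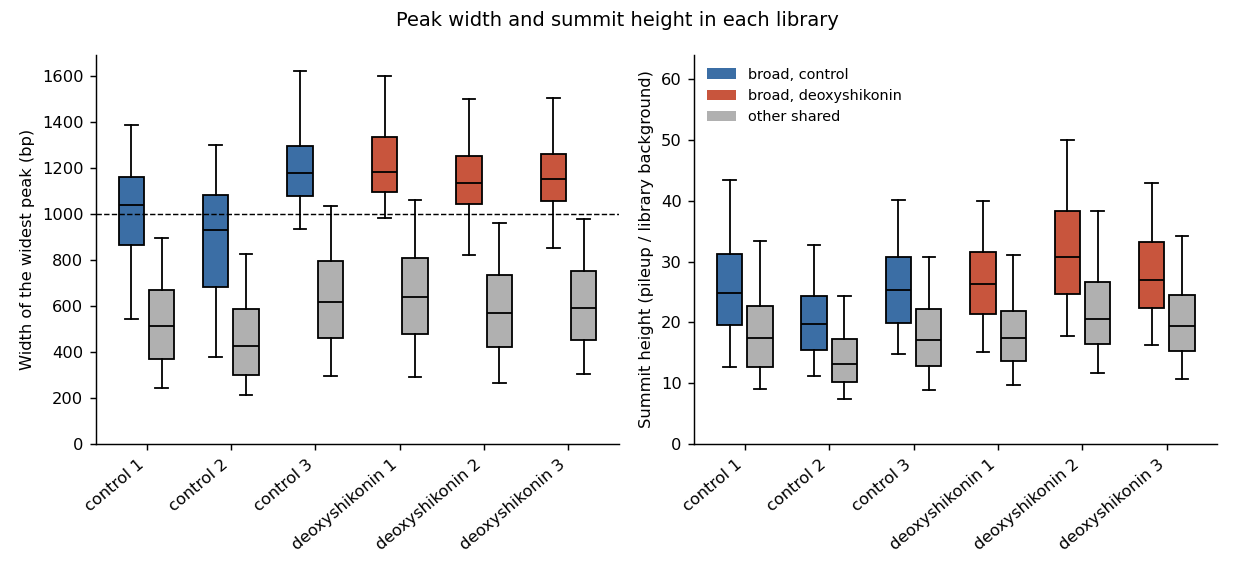
Width of the widest peak (left, bp) and summit height over library background (right) in each of the 6 libraries, for broad regions (coloured) and other shared regions (grey). Boxes give quartiles with the median as a line, whiskers the 5th and 95th percentile, and the dashed line the limit of 1000 bp. Control replicate 2 has the lowest broad medians in both panels, 931 bp and 19.7.

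Splitting of a broad region into separate peaks was common and was seen mostly in the controls. More than 1 peak was called in 96, 163 and 36 broad regions in control replicates 1 to 3, and in 17, 39 and 58 in deoxyshikonin replicates 1 to 3. As shares these were 13.1%, 22.2% and 4.90% in the controls against 2.32%, 5.31% and 7.90% under deoxyshikonin. At other shared regions the shares were 4.12%, 5.55% and 3.75% in the controls against 3.30%, 4.4% and 4.95% under deoxyshikonin. The groups overlapped through control replicate 3. In all, 275 broad regions (37.5%) were split in at least 1 library and 459 in none. Of the 275, 184 were split only in controls, 41 only under deoxyshikonin and 50 in both groups. Just 2 regions were split in all 3 controls and in no deoxyshikonin library, and 1 was split the other way. The gap between the parts had a median of 184 bp (quartiles 149 and 240 bp, range 113 to 976 bp, 429 gaps). A split shortens the widest peak, so these counts are tied to the widths that chose the regions, and they were not tested.

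Broad regions stood higher than other shared regions in every library. Their median height was 24.9, 19.7 and 25.3 in control replicates 1 to 3, against 17.5, 13.1 and 17.1 at other shared regions. Under deoxyshikonin it was 26.3, 30.8 and 27.0 in replicates 1 to 3, against 17.5, 20.5 and 19.4. Within each list the median broad region stood at the 82.8 to 91.6 percentile of −log10 q, and the median other shared region at the 56.6 to 80.0 percentile. Wider peaks cover more tags, so this order is a description. Between the medians over the 6 libraries, width and height had a Spearman correlation of 0.52 across all 12238 shared regions, which share the 6 libraries. Across the 734 broad regions it was 0.08, but the width limit leaves these a narrow range of widths, so the 2 values cannot be compared. Height also varied slightly less between libraries at broad regions, but these stood higher and regions of like height were not compared. The median SD of log2 height between libraries was 0.13 in each group at broad regions, and 0.17 in the controls and 0.16 under deoxyshikonin at other shared regions.

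The median height of broad regions was higher under deoxyshikonin, by about as much as that of other shared regions, and both depended on the scale of height. The median height of broad regions was 23.3 ± 3.15 in the controls and 28.0 ± 2.43 under deoxyshikonin (SD over 3 libraries each; p = 0.1 by two-sided exact permutation, the lowest that 3 against 3 allows). All 3 deoxyshikonin libraries lay above all 3 controls. The log2 ratio of 0.27 was 0.16 without control replicate 2. With the authors' fold enrichment as the height it was 0.018, from medians of 6.82 ± 0.397 and 6.90 ± 0.173 (SD over 3 libraries each, p = 0.8 by exact permutation). The same shift was present at other shared regions, with 15.9 ± 2.43 and 19.1 ± 1.53 (SD over 3 libraries each, exact permutation p = 0.1). The log2 height gap between broad and other shared regions was 0.55 ± 0.04 in the controls and 0.55 ± 0.06 under deoxyshikonin (SD, n = 3 each), a difference of −0.003 with an exact permutation p of 1. With the fold enrichment as the height this difference was −0.085, and the groups did not overlap (exact permutation p = 0.1, the lowest possible). Whether the gap differs between the groups thus depends on whether height is taken over the library's or the local background. Because width chose the broad regions and was correlated with height, these heights are not independent of that choice.

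A minority of broad regions were called as changed in height once each library was centred on its median over the shared regions. Of the 734 broad regions, 33 (4.5%) rose and 26 (3.54%) fell under deoxyshikonin (limma with Benjamini-Hochberg adjusted p under 0.05 over all 12238 shared regions, n = 3 per group). Over all shared regions 6.42% were called higher and 6.0% lower, so broad regions were called no more often than the shared regions as a whole. The median log2 change was 0.49 among the 33 and −0.43 among the 26. It was −0.01 over all 734, and −0.02 over all shared regions. In 722 broad regions (98.4%) the log2 change was smaller than that of a 1.5-fold difference, which held for 94.3% of all shared regions. One region exceeded 2-fold. Heights of the groups did not overlap in 71 broad regions that were higher (9.67%) and 102 that were lower (13.9%), where all shared regions gave 12.9% and 14.4%. Width in these same libraries chose the broad regions and was correlated with height across shared regions. The height calls at broad regions are therefore not independent of how the regions were chosen.

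The numbers called depended on the scale. Depth scaling alone leaves in the shift of all shared regions (median log2 change 0.27 in place of −0.02). With it, 68 broad regions were higher and 0 lower, and at an unadjusted limma p under 0.05 these were 175 and 1. Over all 12238 shared regions it gave 1601 higher and 26 lower (limma adjusted p under 0.05). The authors' fold enrichment divides by construction by the tag density of the surrounding 10 kb. With it as the height, 1 broad region was higher and 9 lower, and over all shared regions 200 and 215. The 33 higher regions became 20 and 21 without deoxyshikonin replicates 1 and 2. The 26 lower became 13 and 16 without deoxyshikonin replicates 2 and 3. Of the 59 calls, 17 held whichever library was left out, 10 of them higher and 7 lower.

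**Figure D2:**
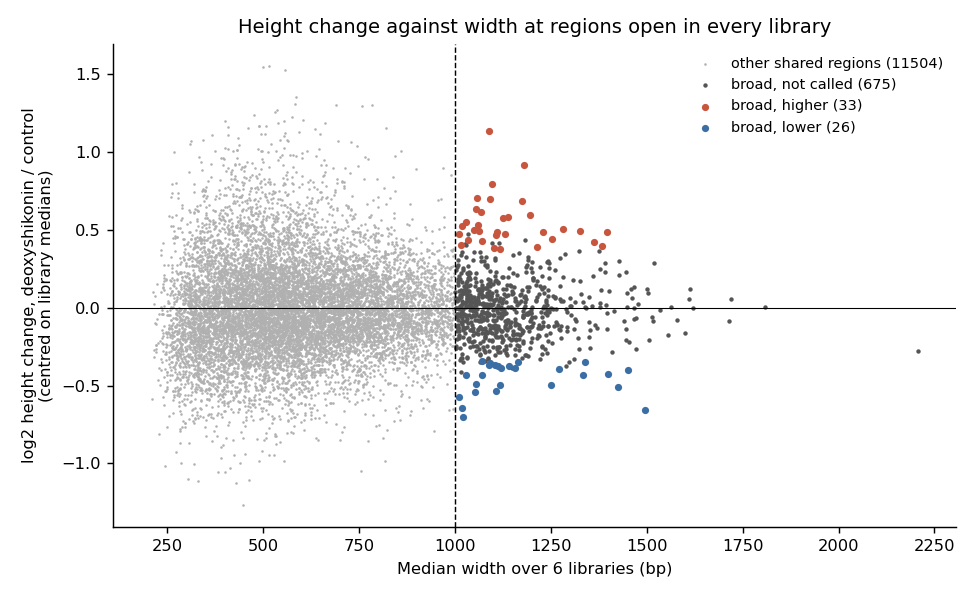
Log2 change in centred summit height (y axis, deoxyshikonin over control) against the median width over the 6 libraries (x axis, bp) for all 12238 shared regions, with the limit of 1000 bp dashed. The 33 broad regions called higher and the 26 called lower (coloured, limma adjusted p under 0.05) are spread among the 675 that were not called.

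The largest increase was at LUXX01039762.1, 1432781 to 1434092. Its height relative to the library median was 0.606, 0.759 and 0.644 in control replicates 1 to 3, against 1.65, 1.42 and 1.33 in deoxyshikonin replicates 1 to 3. The log2 change was 1.13 (SE 0.158, limma adjusted p = 4.56e-10). The highest point of this region stood below the typical shared region in every control and above it in every deoxyshikonin library. At LUXX01018793.1, 1903809 to 1905764, relative height was 1.06, 0.897 and 1.04 in the controls against 1.78, 2.03 and 1.85 under deoxyshikonin. The log2 change was 0.92 (SE 0.132, limma adjusted p = 1.22e-09). Its widest peak measured 893 to 956 bp in the controls and 1402 to 1552 bp under deoxyshikonin, so it reached the width limit through the deoxyshikonin libraries alone and this difference is part of how it was chosen.

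At LUXX01086461.1, 489600 to 490798, relative height was 0.909, 0.793 and 0.778 in the controls against 1.41, 1.29 and 1.62 under deoxyshikonin, or 0.80 on the log2 scale (SE 0.149, limma adjusted p = 8.37e-06). At LUXX01073055.1, 935394 to 936575, it was 1.21, 1.24 and 1.11 against 1.89, 1.97 and 1.95, or 0.71 on the log2 scale (SE 0.127, limma adjusted p = 3.09e-06). The 3 deoxyshikonin libraries lay very close together at the second of these. At LUXX01065618.1, 933386 to 934757, relative height was 0.697, 1.00 and 1.09 in the controls against 1.51, 1.55 and 1.38 under deoxyshikonin (log2 change 0.70, SE 0.143, limma adjusted p = 5.97e-05). At LUXX01090259.1, 1183543 to 1184858, it was 1.58, 1.34 and 1.13 against 2.32, 2.26 and 1.90 (log2 change 0.68, SE 0.123, limma adjusted p = 3.22e-06). The groups did not overlap at any of these 6 regions. Except at LUXX01090259.1, the outermost summits of the 6 libraries lay more than 200 bp apart, so height was read at different points. All 6 calls held when any 1 library was left out and with depth scaling alone. However, at all 6 the 3 deoxyshikonin libraries reached the width limit and most or all controls fell short. Width and height were correlated across shared regions, so these height calls are not independent of how the regions were chosen. None of the 6 was called with the authors' fold enrichment as the height, where the log2 change ran from −0.27 at LUXX01018793.1 to 0.45 at LUXX01086461.1. The sign was reversed at LUXX01018793.1 alone.

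The largest decrease was at LUXX01025697.1, 103479 to 104751. Its relative height was 2.18, 2.07 and 1.78 in control replicates 1 to 3, against 1.11, 1.45 and 1.15 in deoxyshikonin replicates 1 to 3. The log2 change was −0.70 (SE 0.126, limma adjusted p = 2.55e-06). Its widest peak measured 702 to 872 bp in the controls and 1171 to 1272 bp under deoxyshikonin, so it too met the width limit only through the deoxyshikonin libraries, and nothing is read from its width. At LUXX01022578.1, 235390 to 236939, relative height was 2.24, 2.28 and 2.36 in the controls against 1.51, 1.42 and 1.44 under deoxyshikonin (log2 change −0.65, SE 0.122, limma adjusted p = 7.23e-06). At LUXX01070105.1, 1859551 to 1861105, it was 2.55, 2.24 and 2.38 against 1.68, 1.39 and 1.54 (log2 change −0.64, SE 0.121, limma adjusted p = 9.96e-06). Both stood at more than 2 library medians in every control.

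At LUXX01048137.1, 5496006 to 5497284, relative height was 0.939, 0.828 and 1.04 in the controls against 0.649, 0.710 and 0.538 under deoxyshikonin (log2 change −0.57, SE 0.184, limma adjusted p = 0.0226). At LUXX01095011.1, 101282 to 102443, it was 1.27, 1.31 and 0.933 against 1.03, 0.742 and 0.667 (log2 change −0.54, SE 0.161, limma adjusted p = 0.0119). At LUXX01084869.1, 3565210 to 3566604, it was 1.64, 1.69 and 1.42 against 1.08, 1.03 and 1.15 (log2 change −0.54, SE 0.134, limma adjusted p = 0.0017). The groups overlapped only at LUXX01095011.1 among these 6 lower regions. Except at LUXX01025697.1 and LUXX01070105.1, their outermost summits lay more than 200 bp apart. The call at LUXX01048137.1 was lost without control replicate 1 (limma adjusted p = 0.0553), control replicate 3 (0.140) or deoxyshikonin replicate 3 (0.146). That at LUXX01095011.1 was lost without control replicate 1 (limma adjusted p = 0.0749), control replicate 2 (0.108), deoxyshikonin replicate 2 (0.0596) or deoxyshikonin replicate 3 (0.127). The other 4 held in each case. With depth scaling alone all 6 remained negative, with log2 changes of −0.41 to −0.25, but none passed the threshold (limma adjusted p of 0.157 to 0.454). With the fold enrichment as the height all 6 remained negative and 1, LUXX01025697.1, was called (limma adjusted p = 0.00659).

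**Figure D3:**
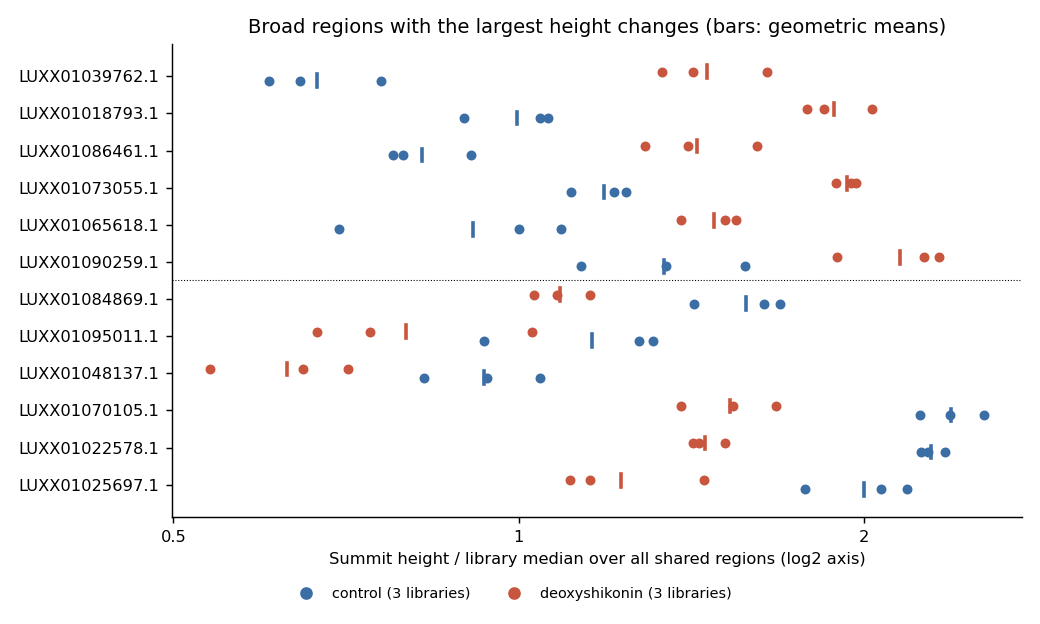
Summit height relative to the library median over all shared regions (x axis, log2 scale) at the 6 broad regions with the largest increases (top) and the 6 with the largest decreases (bottom), each region named by its contig. Points are the 3 libraries of each group and bars their geometric means; the groups overlap at LUXX01095011.1 only.

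The tag density in the 10 kb around the summit was higher under deoxyshikonin at 144 broad regions (19.6%) and lower at 56 (7.63%), where all regions tested gave 15.4% and 18.2%. Calls were more frequent for density than for height at broad regions and over all regions tested alike. The larger number of density calls is thus not particular to broad regions. The direction differed after centring, since denser calls outnumbered sparser ones at broad regions and the reverse held over all regions tested. With depth scaling alone, denser calls outnumbered sparser ones in both sets. This density is the peak caller's local background over the library's genome-wide mean, and it counts the tags of the region together with its surroundings. It was above the genome-wide floor in all 6 libraries at 734 of 734 broad regions and 11609 of 12238 shared regions. The median at broad regions was 3.00, 2.60 and 3.09 in control replicates 1 to 3, against 3.33, 3.70 and 3.36 in deoxyshikonin replicates 1 to 3. At other shared regions it was 2.14, 1.92 and 2.16 against 2.30, 2.46 and 2.32. The groups did not overlap in either set. The log2 density gap between broad and other shared regions was 0.48 ± 0.04 in the controls and 0.55 ± 0.03 under deoxyshikonin (SD over 3 libraries each, p = 0.1 by exact permutation, again the lowest this design allows). In this gap all 3 deoxyshikonin libraries lay above all 3 controls. Mean width was greater under deoxyshikonin at 568 of the 734 broad regions (77.4%), against 72.8% of other shared regions. Density counts the tags of these same peaks. Neither this gap nor the share of denser calls is therefore independent of how the regions were chosen.

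The 144 denser and 56 sparser regions were called after centring (limma, Benjamini-Hochberg adjusted p under 0.05 over the 11609 regions). The median log2 change was 0.05 over broad regions and −0.02 over all regions tested. Changes were small: the median was 0.29 among the 144 and −0.21 among the 56, and 3 regions exceeded 2-fold. With depth scaling alone 355 broad regions were denser and 1 sparser. Over all 11609 regions that scaling gave 4127 denser and 245 sparser. The 56 sparser regions became 31 without control replicate 3. Of the 200 calls, 108 held whichever library was left out, 87 of them denser and 21 sparser.

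The largest density increase was at LUXX01018793.1, the region with the second largest rise in height. It was chosen through its wide peaks in the deoxyshikonin libraries, whose tags also count in the density, so its values are not independent of that choice. Its density was 2.44, 1.95 and 2.47 in control replicates 1 to 3, against 6.43, 6.90 and 6.12 in deoxyshikonin replicates 1 to 3 (log2 change 1.32, SE 0.066, limma adjusted p = 4.36e-40). At LUXX01026601.1, 1886011 to 1887925, it was 3.24, 2.71 and 3.27 against 7.65, 7.89 and 7.97 (log2 change 1.17, SE 0.063, limma adjusted p = 3.25e-37). The summit height of this second region had a log2 change of 0.39 (limma adjusted p = 0.0172), a call that was lost without deoxyshikonin replicate 3 (limma adjusted p = 0.0824). With the authors' fold enrichment as the height the direction was reversed, and the region was called lower (log2 change −0.67, limma adjusted p = 0.00595). At LUXX01039762.1, the region with the largest rise in height, density was 1.90, 1.73 and 1.76 against 4.09, 4.81 and 4.10 (log2 change 1.08, SE 0.074, limma adjusted p = 1.99e-27). No other region of any library was called within 5 kb of the summits of these 3 regions. The density includes the tags of the regions' own peaks, and the surroundings without them were not measured. All 3 regions were wider in every deoxyshikonin library than in any control, so none of these increases is independent of the width rule. All 3 stayed denser with depth scaling alone.

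Among the sparser regions the change was largest at LUXX01031025.1, 13431 to 14555. Its density was 5.04, 4.79 and 5.18 in the controls against 3.93, 4.24 and 4.0 under deoxyshikonin (log2 change −0.49, SE 0.064, limma adjusted p = 1.06e-10). It stayed lower with depth scaling alone (log2 change −0.30, limma adjusted p = 0.0101). At LUXX01065618.1, 900217 to 901530, density was 2.78, 2.34 and 2.73 against 2.31, 2.37 and 2.28 (log2 change −0.36, SE 0.078, limma adjusted p = 9.16e-05). The groups overlapped before centring, and with depth scaling alone the log2 change was −0.17 (limma adjusted p = 0.185). On the same contig, the region at 933386 to 934757 went the other way (log2 density change 0.64, limma adjusted p = 1.36e-16). At LUXX01096074.1, 3570819 to 3572082, density was 7.63, 6.99 and 7.96 against 6.44, 7.0 and 6.67 (log2 change −0.35, SE 0.061, limma adjusted p = 7e-07), and −0.17 with depth scaling alone (limma adjusted p = 0.201). Here too the groups overlapped before centring. The widest region of all, on LUXX01100606.1, was also sparser, with 15.4, 14.9 and 14.2 against 13.3, 14.6 and 12.9 (log2 change −0.32, SE 0.064, limma adjusted p = 2.32e-05). The groups overlapped before centring at this region as well, and with depth scaling alone its change was −0.13 (limma adjusted p = 0.403). The density measure, its tests and these regions were chosen after the values were seen.

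**Figure D4:**
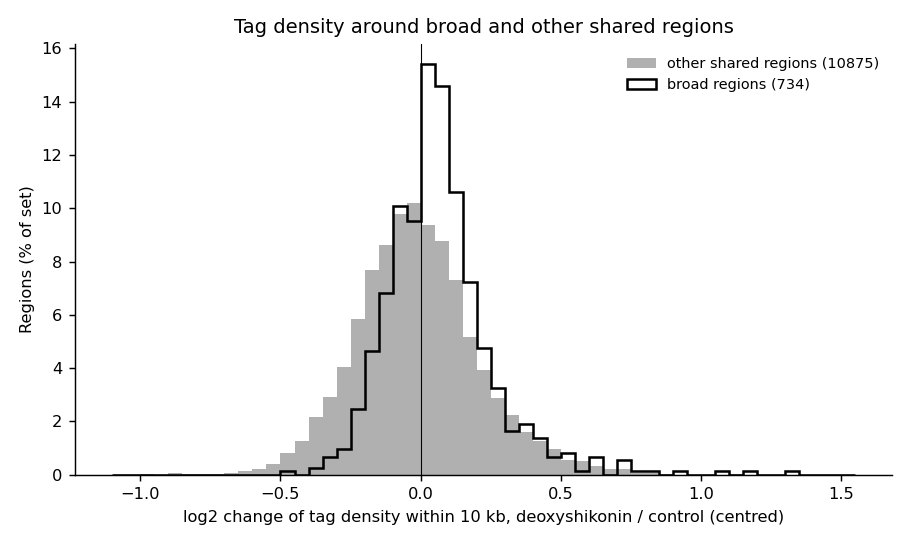
Distribution of the log2 change in tag density within 10 kb (x axis, deoxyshikonin over control, centred on library medians) for the 734 broad regions (line) and the other shared regions with a density above the floor (grey), as a percentage of each set in bins of 0.05. The broad regions have a median of 0.05, and 90% of them lie between −0.19 and 0.39.

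Summits moved more within broad regions than within other shared regions, which also offer less room. The summit lay between 34.7% and 64.4% of the way along its peak in the middle 50% of cases, close to the 35.8% and 62.6% at other shared regions. The distance between the outermost summits of the 6 libraries had a median of 194 bp at broad regions (quartiles 88 and 457 bp, highest 1476 bp) and 115 bp at other shared regions. At 372 broad regions (50.7%) all 6 summits fell within 200 bp, against 70.8% of other shared regions. At 163 broad regions (22.2%) they were more than 500 bp apart, so that different libraries had their highest point in different parts of the region. Height is read at those different points: 22 of the 33 broad regions called higher and 11 of the 26 called lower had summits more than 200 bp apart, as did 362 of all 734.

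In 21 broad regions (2.86%) the summits separated by group, with all 3 deoxyshikonin summits on one side of all 3 control summits and more than 200 bp between the groups. Over all shared regions the share was 0.760%. The gap had a median of 304 bp and reached 636 bp. At LUXX01090609.1, 1243457 to 1244631, the summit lay 921, 850 and 841 bp from the start of the region in control replicates 1 to 3, against 205, 198 and 196 bp in deoxyshikonin replicates 1 to 3. This region was 1 peak of 1031 to 1144 bp in every library, and its relative height was 1.39, 1.48 and 1.44 in the controls against 1.41, 1.32 and 1.18 under deoxyshikonin (limma adjusted p = 0.526). The highest point thus stood at the other end of the region at a height that did not pass the test.

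At LUXX01047591.1, 946332 to 947600, the summit lay at 346, 439 and 213 bp in the controls against at 1098, 1080 and 1060 bp under deoxyshikonin. At LUXX01052731.1, 5063068 to 5064819, it lay at 1423, 1545 and 1492 bp against 831, 798 and 804 bp. Neither changed in height past the threshold (limma adjusted p of 0.890 and 0.614). At LUXX01088383.1, 848598 to 849773, it lay at 187, 160 and 184 bp against 757, 765 and 774 bp. That region also rose in height, at 1.36, 1.17 and 1.31 against 1.86, 2.00 and 1.49 (log2 change 0.47, SE 0.127, limma adjusted p = 0.00469), a call that was lost without deoxyshikonin replicate 2 (limma adjusted p = 0.0804). Of the 21 regions, 1 was called higher, 1 lower (LUXX01048137.1, described above) and 19 neither. The 21 lay on 21 different contigs. The count was 33 without control replicate 2 or 3 and 34 without deoxyshikonin replicate 2 or 3, when fewer summits have to separate. The criterion and the 4 regions described were chosen after the values were seen, and no test of the positions was made.

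**Figure D5:**
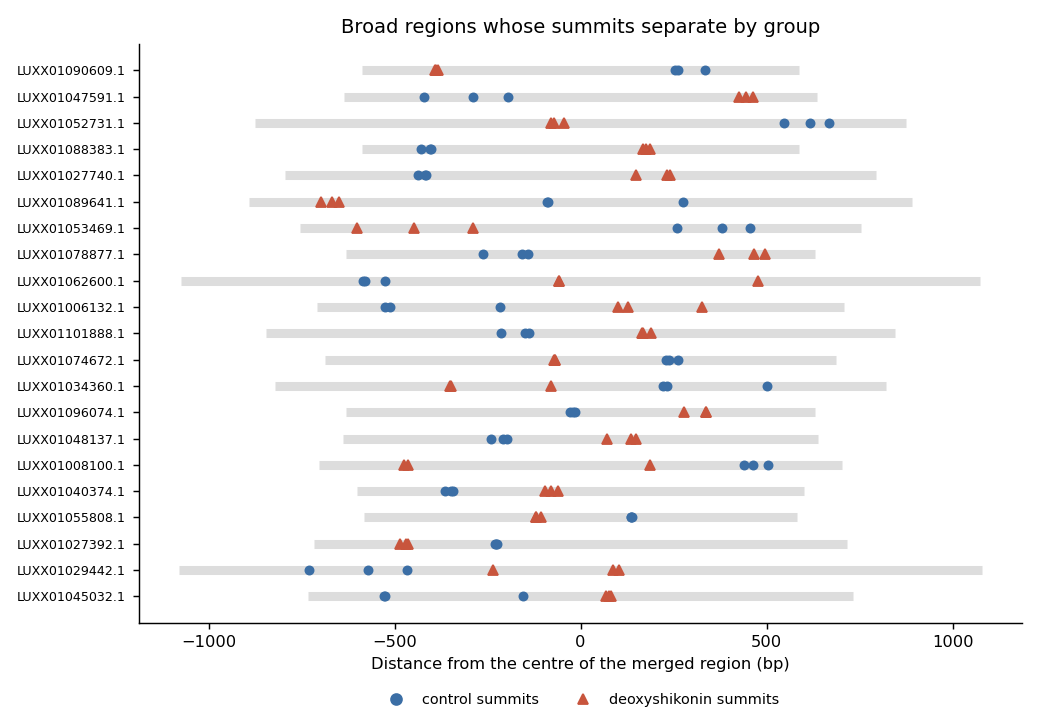
Summit positions (x axis, bp from the centre of the merged region) in the 21 broad regions whose control summits (circles) and deoxyshikonin summits (triangles) are more than 200 bp apart as groups, ordered by the gap, each named by its contig. Grey bars span the merged region; at LUXX01090609.1 the 2 groups lie toward opposite ends, 636 bp apart.

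Broad regions were scattered over the assembly and stood somewhat apart from other regions. They lay on 407 of the 1182 contigs that held shared regions, 245 of which had 1 broad region. A further contig, LUXX01096521.1, had 7 among 54. The highest number was 14 on LUXX01096074.1, which also held the most shared regions (164). LUXX01052731.1 had 11 among 98 shared regions, LUXX01047513.1 had 8 among 46, and LUXX01070105.1 had 7 among 39. LUXX01086768.1 had 7 among only 16 shared regions (43.8%), the highest share of these 5 contigs, where 6.0% of all shared regions were broad. Contig lengths were not used here, so these counts are not densities.

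The nearest other region of any kind was at a median distance of 12498 bp from a broad region and 9358 bp from another shared region. A neighbour lay within 1 kb at 6.68% of broad and 12.8% of other shared regions, and within 10 kb at 41.3% and 52.4%. Merging can take a close neighbour into a broad region, which lowers such shares. A region called in all 3 deoxyshikonin libraries and in no control lay within 10 kb of 4.22% of broad and 6.19% of other shared regions, and within 50 kb of 25.6% and 26.6%. Another broad region lay within 10 kb of 6 of the 734 (0.817%), and a broad region lay within 10 kb of 0.913% of other shared regions. Within 50 kb these shares were 7.49% and 6.26%. The closest pair was on LUXX01076984.1, at 272095 to 273314 and 278417 to 279921, 5102 bp apart, with log2 height changes of 0.04 and −0.01. The second was on LUXX01052731.1, at 1689955 to 1691270 and 1698434 to 1699824, where the first changed by 0.01 (limma adjusted p = 0.979) and the second by 0.48 (limma adjusted p = 0.0017). The third was on LUXX01096074.1, at 699234 to 701039 and 709783 to 711494, with changes of 0.39 (limma adjusted p = 0.0173) and 0.30 (limma adjusted p = 0.121). Whether the members of a pair differ was not tested.

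Broad regions made up a smaller part of the longer deoxyshikonin lists. Their peaks covered 0.773, 0.706 and 0.899 Mb in control replicates 1 to 3, against 0.906, 0.856 and 0.875 Mb in deoxyshikonin replicates 1 to 3. This was 7.79%, 9.28% and 6.86% of the covered length in the controls against 5.24%, 5.68% and 5.04% under deoxyshikonin. The shares did not overlap, while the covered lengths did. The share is set by the widths that chose the regions and by the length of each list, and it was not tested. In lists shortened to the same number of best peaks, the log2 ratio of the share was −0.08 in place of −0.58.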

How the data were processed

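The authors deposited 1 narrowPeak list per library, so peaks were called per library. The submitters' processing notes list MACS2 2.1.0 and deepTools, besides Bowtie2 2.4.2, Trim Galore 0.6.6 and bcl2fastq 2.17, without roles. The settings and the genome build were not given in the sources used here. The deposited values are a fold enrichment (ratio) at the summit, a −log10 p, a −log10 q and a whole-number score derived from it, with peak ends and summit in bp.

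The members, lists and comparisons were chosen with earlier results of these data known. Summit pileup and local background were solved from each deposited fold enrichment and −log10 p, taking the fold as (pileup + 1) / (background + 1) and the p as a Poisson tail. In each list 100% of the deposited −log10 p values were matched, to a relative tolerance of 0.0001. Local backgrounds were whole multiples of 0.02 (within 0.02 of a step) in 100% of cases, the step of tags of 200 bp counted over 10000 bp. The lowest background of a library served as its depth. Where a library had several peaks in a region, the highest gave height, density and summit, and the widest gave width. Log2 heights and densities had the median of their library subtracted and were fitted with limma 3.58.1 (R 4.3.3, mean trend). The solution and the fit were tested on simulated data. In simulated heights the fit called 32% of 100 changes of 1.5-fold and 81% of 100 changes of 2-fold. A region that was not called can therefore still have changed. Values per library were compared by exact permutation. Pileups are tag counts without molecular identifiers, and the SE and limma p-values rest on the spread between libraries.

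Regions named are the 6 widest, the 6 with the largest height increase and decrease past the threshold, the 3 nearest the limit on each side, the highest, and the 5 contigs with most members. The 3 with the largest density change each way, the 4 with the largest summit gap and the closest pairs were chosen after the values were seen. Planned tests of width were dropped, because widths chose the members. Other software was scipy 1.17.1, pandas 2.3.3, numpy 2.4.6, matplotlib 3.10.9 and Python 3.11.15.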

Additional observations from a re-analysis of the deposited data

How the results depend on the processing

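The density and summit comparisons were chosen after seeing the data. Width tests were not run, because the widths chose the members. Broad regions numbered 734, and 2357, 118 and 156 with limits of 800 bp, 1.25 kb and 1000 bp in the narrowest library. With single libraries omitted they numbered 690 to 942. Height calls (33 higher, 26 lower) became 68 and 0 with depth scaling alone, and 1 and 9 with the authors' fold enrichment. They were 21 and 10 without the trend. Among the 372 members with summits within 200 bp, which are fewer by construction, they were 11 and 15. Over all shared regions, depth scaling alone gave 1601 and 26. There the fold enrichment gave 200 and 215, and the fit without the trend 704 and 549. Leaving out each library gave 20 to 36 broad regions higher and 13 to 21 lower. Density calls (144 and 56) became 355 and 1 with depth scaling alone, and 33 were sparser without the trend. Over all regions tested, depth scaling alone gave 4127 denser and 245 sparser, and 1915 were sparser without the trend. Leaving out each library gave 99 to 140 broad regions denser and 31 to 55 sparser. The replicate block gave 32 higher and 24 lower in height and 138 denser and 50 sparser, and moved no count by 1.5 times. Same-numbered libraries did not pair, with correlations of their deviations of −0.03, 0.01 and 0.02. Summit separation (21 regions) held for 11 with a gap over 300 bp and for 29 to 34 with each library left out, when fewer libraries have to meet it. The log2 height gap difference between groups (−0.003) ranged from −0.024 to 0.032 with each library left out, and was positive without control replicate 2 (0.013), control replicate 3 (0.0024) or deoxyshikonin replicate 3, and −0.085 with the authors' fold enrichment. The log2 ratio of the median width (0.15) ranged from 0.06 to 0.23, that of the median height (0.27) from 0.16 to 0.34 (0.018 with the authors' fold enrichment), and that of the share of covered length (−0.58) from −0.68 to −0.46. The share ratio was −0.080 in lists of equal length, which drop weak peaks from the longer lists. Apart from settings that set depth, limit or fit, causes were not tested. Read totals are unknown. Whether split or narrow peaks in single libraries followed the depth of those libraries was not tested.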

Other observations

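The contig rule left out 69 regions that were present in all 6 libraries and had a median width of 1000 bp or more, because their contigs held at most 2 regions. The widest peak of every list was among them, on LUXX01038957.1, which held 1 region. It measured 2549, 2573 and 2577 bp in control replicates 1 to 3 and 2548, 2528 and 2537 bp in deoxyshikonin replicates 1 to 3, and it began within the first 84 bp of the contig in each list. Its authors' fold enrichment was 4.58 to 4.95. Among the 37890 regions absent from at least 1 library, 16 had a median width of 1000 bp or more where present. Of these, 15 were in all 3 deoxyshikonin libraries, 5 of them in no control, and 1 was in all 3 controls.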
